A study of Mus musculus with 2 samples.

Results

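Egr1, Egr2, Egr3, Irf4 and Myc are 5 nuclear factors whose transcripts are used as readouts of how strongly a T cell's antigen receptor has been engaged, and they are described here in T cells of the infarcted mouse heart. They are 5 of the 55357 gene rows in the count matrices, taken by symbol, and each symbol matched 1 row. The 5 genes lie on separate chromosomes. In RefSeq's GRCm38.p6 annotation Egr1 spans chr18:34861207-34864956, Egr2 chr10:67534469-67542188, Egr3 chr14:70077317-70082613, Irf4 chr13:30749233-30766981 and Myc chr15:61985341-61990361. Values are sums over the whole gene, so no exon or isoform is resolved. Their UMIs (unique molecular identifiers, each marking 1 captured transcript) were summed over cells with a UMI of Cd3d, Cd3e or Cd3g, the signalling chains of the T cell receptor. That left 3992 Cd3-positive cells of 4380 barcodes in the anti-IgG library and 5352 of 6026 in the anti-PD1 library, or 92.6% and 91.7% of the cells kept.

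The study took T cells from hearts of WT mice 7 days after myocardial infarction. The animals had received either anti-IgG, taken here as the control antibody (spelled Anti-lgG in the labels), or Anti-PD1, an antibody against the inhibitory receptor PD-1. Both groups share the infarct, the genotype and the day, no group without infarction is among the samples, and each group is 1 single-cell library. The labels describe enzymatic dissociation and removal of dead cells, call the cells sorted, do not say how they were sorted, and do not give the number, sex or age of the animals. With 1 library per group there is no test between groups, and every interval below is a 95% counting interval that covers sampling of UMIs or cells only and is too narrow where a few cells hold many UMIs.

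When a T cell receptor binds antigen, the Ras and ERK kinases act through serum response factor on Egr1, while calcium and calcineurin act through NFAT on Egr2 and Egr3. Irf4 and Myc lie further downstream: Irf4 amount grows with the strength of the receptor signal, and Myc drives the cell growth that precedes division. PD-1 recruits phosphatases to the receptor and CD28 and so dampens these routes. Egr1 is also an immediate early gene in most tissues, induced by growth factors, mechanical strain and enzymatic tissue dissociation.

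RefSeq's promoter table held 2 of the 5 genes, Egr2 and Irf4, which are also the 2 members that stood at least 1.5-fold higher in the anti-PD1 library. The 250 bases before the start of each are shown to set the 2 side by side, 5′ to 3′ on the + strand of GRCm38.p6, with capitals marking a CArG box (the element bound by serum response factor), TGACG on either strand (the core of the cAMP response element) and TATAAA on either strand (the TATA box). Egr2 has 5 starts in the table, and the one used coincides with the GENCODE start. Irf4 has 1 start in the table, which lies 7 bases from the GENCODE start. The windows are chr10:67537619-67537868 for Egr2 and chr13:30748983-30749232 for Irf4.

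Egr2: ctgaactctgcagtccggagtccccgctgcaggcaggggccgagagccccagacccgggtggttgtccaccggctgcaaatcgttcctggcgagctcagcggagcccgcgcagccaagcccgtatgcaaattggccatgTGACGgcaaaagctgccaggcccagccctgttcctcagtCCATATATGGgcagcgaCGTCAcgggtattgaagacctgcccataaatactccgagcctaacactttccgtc

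Irf4: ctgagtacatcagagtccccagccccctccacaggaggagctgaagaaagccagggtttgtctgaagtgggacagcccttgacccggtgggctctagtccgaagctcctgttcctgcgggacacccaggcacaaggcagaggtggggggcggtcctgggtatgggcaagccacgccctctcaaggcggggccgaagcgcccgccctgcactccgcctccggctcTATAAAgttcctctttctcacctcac

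The Egr2 window held 1 CArG box, starting 72 bases before the start site, and 2 TGACG matches, starting 111 and 55 bases before it. A CArG box was present in 1.47% and TGACG in 17.7% of 32817 windows of 250 bases. The Irf4 window held TATAAA starting 26 bases before its start site, a match found in 12.4% of windows. Neither window held the full element TGACGTCA (1.55% of windows), the AP-1 pattern TGANTCA (6.75%), the Egr pattern GCGNGGGCG (4.7%) or the E-box CACGTG (6.02%), all searched on both strands. GGAAA, the NFAT core, occurred once in the Egr2 window, was not found in the Irf4 window, and was present in 55.6% of windows. These are matches of letters, not measured binding.

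Cells were placed in gates by marker UMIs. The naive gate (2 or more of 5 genes such as Ccr7 and Lef1) held 1198 cells in the anti-IgG library and 1525 in the anti-PD1 library, and the effector gate (2 or more of 12 genes such as S100a4, Ccl5, Nkg7 and Cxcr6) held 1211 and 1370. The Foxp3 gate, for the factor that defines regulatory T cells, held 238 and 281 cells. The NK-marker gate (2 or more of 7 natural killer receptor genes) held 99 and 187, and the gamma-delta gate (a UMI of Trdc, Trdv4 or Trgv6) held 424 and 828. B cells, the contrast, numbered 56 and 133. Genes not used in the gates followed them for Foxp3 (3 of 3 check genes highest in their own gate in each library), gamma-delta (4 of 4 in each), naive (3 of 3 in each) and NK-marker (4 of 4 and 3 of 4). They did not for the effector gate: Pdcd1, Cd44 and Itgb7 were highest in the gamma-delta gate in both libraries, although Pdcd1, which encodes PD-1, stood at 141 against 3.26 counts per 1000000 UMIs in effector and naive anti-IgG cells. A further 247 and 381 Cd3-positive cells carried 2 or more markers of 1 other lineage and are kept apart from the gates, and 575 and 780 met no gate. Median depth was 4078.5 and 3864 UMIs per Cd3-positive cell, and 47 barcodes occurred in both libraries, of which 42 and 41 belonged to Cd3-positive cells.

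Irf4, the factor that scales effector differentiation to receptor signal and pairs with Batf and Jun proteins on DNA, differed most between the libraries among the 5 genes. It stood at 13.3 counts per 1000000 UMIs of the cell set (CPM) in anti-IgG Cd3-positive cells (276 UMIs, interval 11.8 to 15.0) and at 43.5 in anti-PD1 cells (1144 UMIs, 41.0 to 46.1). The ratio was 3.27 (2.87 to 3.75). Over 13 alternative settings it ran from 3.04 to 3.78. Egr2 was the other member at least 1.5-fold higher, so 2 of 5 members passed that fold, while 5.88% of the 12849 genes with 50 or more UMIs did. None of the 5 was at least 1.5-fold lower, against 11.8% of all genes. Only 68 genes, 0.529%, had a higher ratio than Irf4. After thinning each cell to 1000 UMIs, an Irf4 UMI was found in 1.16% of Cd3-positive cells in the anti-IgG library (0.852 to 1.55) and in 3.74% in the anti-PD1 library (3.24 to 4.28). Without thinning the shares were 5.09% and 11.9%. Fibroblasts, which should lack Irf4, held 0 Irf4 UMIs in both libraries (upper limits 15.8 and 14.6 CPM), and endothelial cells held 1 and 0 (upper limits 12.8 and 19.1 CPM). These limits are as high as the anti-IgG T cell level, and these few cells cannot bound the background for the lower Irf4 levels.

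The naive gate had the lowest Irf4 level of the 5 gates in both libraries, overlapping the NK-marker gate, and the highest ratio. Irf4 was 2.79 CPM in naive anti-IgG cells (12 UMIs in 11 cells) and 18.2 in naive anti-PD1 cells (96 UMIs in 54 cells), a ratio of 6.52 (3.57 to 13.1). There 1 of 3 members with enough UMIs was at least 1.5-fold higher, against 5.02% of genes, and a single gene of 8710 had a higher ratio than Irf4. Split by coreceptor, naive CD4 cells went from 3 to 43 UMIs (1.66 to 21.7 CPM, ratio 13.1, 4.18 to 65.9). Naive CD8 cells went from 5 to 17 UMIs (5.09 to 13.6 CPM), and the interval of that ratio, 0.949 to 9.29, includes 1. The thinned share of naive cells with an Irf4 UMI was 0.252% and 1.51%, and the first of these equals the limit of 3 cells that a count of 0 would allow.

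In the effector gate Irf4 was 15.2 CPM in the anti-IgG library and 52.8 in the anti-PD1 library, a ratio of 3.47 (2.71 to 4.49). Irf4 was again 1 of 3 members past 1.5-fold, against 5.97% of genes. Effector CD4 cells stood at 17.9 and 54.7 CPM (ratio 3.06, 2.13 to 4.46) and effector CD8 cells at 14.04 and 37.2 (ratio 2.65, 1.6 to 4.59). Gamma-delta cells stood at 24.0 and 74.7 CPM, a ratio of 3.12 (2.35 to 4.18), with 6.44% of genes past 1.5-fold in that gate. NK-marker cells held 4 and 32 Irf4 UMIs, 6.0 and 26.7 CPM, a ratio of 4.45 (1.58 to 17.3). Foxp3 cells had the smallest ratio of the 5 gates, 1.65 (1.14 to 2.42), from 31.9 to 52.7 CPM, where 5.23% of genes passed the fold. The dendritic markers, of cells that also make Irf4, summed to 4.5 and 33.4 CPM in the NK-marker gate (1 and 3 of 6 detected, Flt3, Clec9a and Cd209a at 0 in both) and to 1.22 and 10.6 in the gamma-delta gate (2 and 4 of 6), and their part was not tested. Irf4 was higher in the anti-PD1 library in each of the 5 gates, and the differences between gates in the size of the ratio were not tested.

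The T cell gate with the highest Irf4 level was not the same in the 2 libraries, but the leading gates of the anti-IgG library were not apart. In the anti-IgG library Foxp3 cells led the T cells at 31.9 CPM, with gamma-delta cells at 24.0, effector CD4 at 17.9 and effector CD8 at 14.04, each overlapping its neighbour. In the anti-PD1 library gamma-delta cells led at 74.7 CPM and did not overlap effector CD4 (54.7), which overlapped Foxp3 (52.7). The first 2 were barely apart, with a lower limit of 66.8 against an upper limit of 66.6 CPM. Their thinned shares of cells with an Irf4 UMI overlapped (5.18% to 8.75% and 2.62% to 6.66%). B cells, in which Irf4 controls plasma cell differentiation, stood above every T cell gate, at 273 and 200 CPM. Their ratio was 0.733 (0.518 to 1.04), but 1 anti-IgG B cell held 25 of the 59 UMIs, and without the cell with the most UMIs in each library it was 1.01 (0.658 to 1.57), so the direction in B cells turned with the choice of cells. The B cell sets also differed otherwise: Ighm, the IgM heavy chain, was 3921 and 903 CPM, and the dendritic markers together 4.64 and 116. Dendritic cells stood at 18.5 and 80.1 CPM (8 and 44 UMIs), a ratio of 4.34 (2.02 to 10.7), with 6.43% of genes there at least 1.5-fold higher. Myeloid cells held 0 and 12 Irf4 UMIs, at least 2.25-fold higher against a floor of 3 counts in the library at 0.

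**Figure D1:**
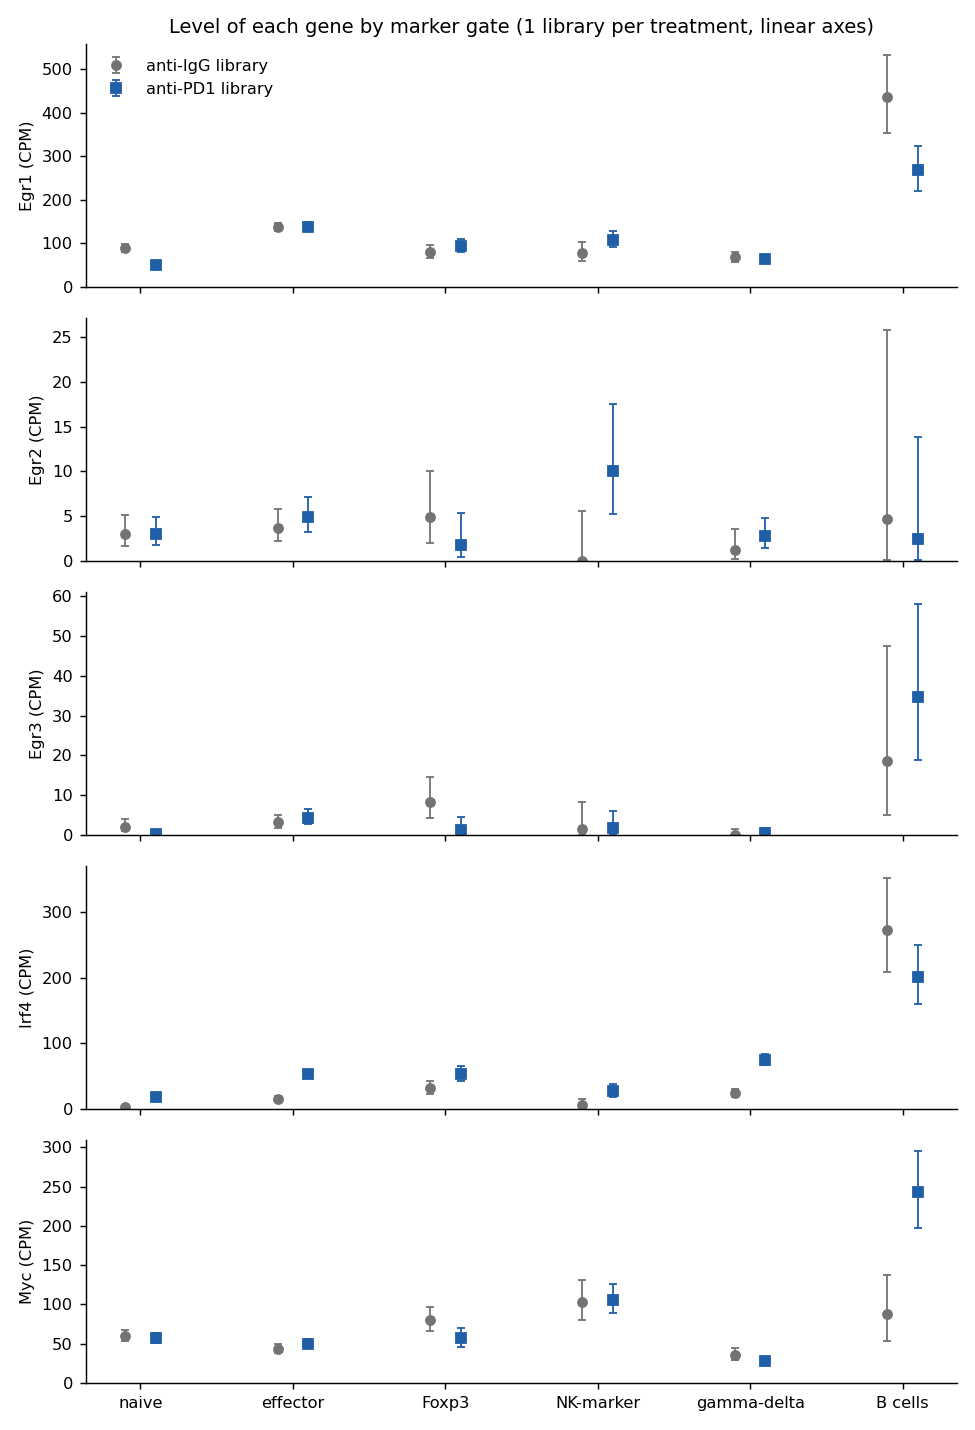
Level of each gene (vertical axes, CPM, linear) in 5 T cell gates and B cells, in the anti-IgG library (grey circles) and the anti-PD1 library (blue squares). Points are sums over all cells of 1 library and bars are exact Poisson 95% intervals. Irf4 is higher in the anti-PD1 library in every T cell gate, from 2.79 to 18.2 in naive cells, whereas Egr1 is lower there in naive cells (88.6 and 50.1).

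Egr1, the zinc finger factor switched on within minutes of ERK signalling, had a pooled ratio that its gates did not share. It stood at 109 CPM in anti-IgG Cd3-positive cells (2259 UMIs) and 125 in anti-PD1 cells (3297 UMIs), a ratio of 1.15 (1.09 to 1.22). Cells with markers of other lineages held 168 and 322 CPM, and a single anti-PD1 cell held 86 Egr1 UMIs. Without all such cells the ratio was 0.899 (0.842 to 0.959), and with each cell weighted alike it was 0.961. The thinned shares of cells with an Egr1 UMI were 8.72% (7.86 to 9.64) and 8.32% (7.59 to 9.10), and the unthinned ones 22.7% and 23.3%. The pooled direction of Egr1 turned with which cells were counted.

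Within gates, Egr1 was lower in naive anti-PD1 cells, 88.6 against 50.1 CPM, a ratio of 0.565 (0.481 to 0.663). It was the 1 of 3 members at least 1.5-fold lower there, as were 9.49% of genes; in naive CD4 cells it was 1 of 2, with 9.43% of genes lower. Naive CD4 cells were close to the gate as a whole (90.1 and 53.4 CPM, ratio 0.593, 0.460 to 0.762), while naive CD8 cells stood at 60.0 and 63.3. Effector cells as a whole stood at 137 and 138 CPM, but their subsets differed in direction. Effector CD4 cells went from 168 to 113 (ratio 0.672, 0.565 to 0.796) and effector CD8 cells from 89.1 to 144 (ratio 1.62, 1.31 to 2.01). In effector CD8 cells 2 of 3 members, Egr1 and Irf4, were at least 1.5-fold higher, against 6.44% of genes. In effector CD4 cells Irf4 was at least 1.5-fold higher (5.76% of genes) and Myc at least 1.5-fold lower (9.51% of genes). Foxp3 cells stood at 79.7 and 93.9 CPM (ratio 1.18, 0.919 to 1.51), gamma-delta cells at 67.8 and 64.1 (0.945, 0.777 to 1.15), and NK-marker cells at 78.0 and 109 (1.39, 1.002 to 1.96). The NK-marker ratio reversed to 0.655 (0.286 to 1.53) when cells were thinned, and neither of the 2 members with enough UMIs there passed 1.5-fold, against 9.59% of genes higher and 9.47% lower.

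Genes that respond to tissue dissociation moved beside Egr1 in some of these gates. In naive cells Fos was 947 and 412 CPM, Jun 1108 and 585, and the heat shock gene Hspa1a 251 and 69.4, all lower in the anti-PD1 library as Egr1 was. They were also lower in gates where the interval of the Egr1 ratio included 1. In naive CD8 cells Fos was 863 and 532, Jun 881 and 493, and Hspa1a 189 and 42.5 CPM. In Foxp3 cells Fos was 672 and 374, Jun 526 and 324, and Hspa1a 99.1 and 19.4 CPM. Gamma-delta cells had Fos at 871 and 583, Jun at 849 and 556, and Hspa1a at 83.7 and 51.9 CPM. In effector CD8 cells, where Egr1 was higher, Hspa1a was 50.5 and 97.0 CPM, while Fos was 410 in both libraries and Jun 585 and 310. Myeloid markers summed to 7.72 and 18.6 CPM in effector CD8 cells, with 3 and 5 of 8 markers detected and Adgre1, S100a8 and S100a9 at 0 in both libraries, and their part was not tested. In effector CD4 cells Fos was 859 and 468, Jun 603 and 306, and Hspa1a 107 and 102. Leaving out cells with a UMI of Hspa1a or Hspa1b gave Egr1 ratios of 0.598 (0.501 to 0.713) in naive, 0.760 (0.620 to 0.930) in effector CD4 and 1.65 (1.31 to 2.09) in effector CD8 cells. The part of dissociation in the Egr1 differences was otherwise not tested. For Irf4 the same exclusion gave 6.40 (3.33 to 13.8) in naive and 3.31 (2.54 to 4.37) in effector cells.

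Outside the T cells Egr1 moved in both directions. B cells stood at 436 and 267 CPM (ratio 0.614, 0.461 to 0.818), above every T cell gate, with 5.88% of genes there at least 1.5-fold lower and 19.8% at least 1.5-fold higher. The UMIs came from 12 of 56 and 17 of 133 B cells, with 21 of 94 and 26 of 108 in 1 cell. By share of cells with an Egr1 UMI, B cells stood at 17.9% and 8.33% thinned, against 8.72% and 8.32% of Cd3-positive cells. Unthinned, the B cell shares were 21.4% and 12.8%, against 22.7% and 23.3%. Myeloid cells stood at 265 and 832 (ratio 3.14, 2.51 to 3.97, with 9.58% of genes at least 1.5-fold higher), endothelial cells at 358 and 1533 (4.28, 3.52 to 5.23, with 7.85%) and fibroblasts at 557 and 2433 (4.37, 3.61 to 5.32). These sets are small, at 62 and 37 endothelial cells and 21 and 19 fibroblasts, and 1 endothelial cell held 92 of the 156 anti-IgG UMIs. Endothelial Fos (427 and 2590 CPM) and Hspa1a (32.1 and 337) were higher as well, and their part was not tested. The summed fibroblast markers in the naive, effector and gamma-delta gates stayed between 2.07 and 4.47 CPM in both libraries.

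**Figure D2:**
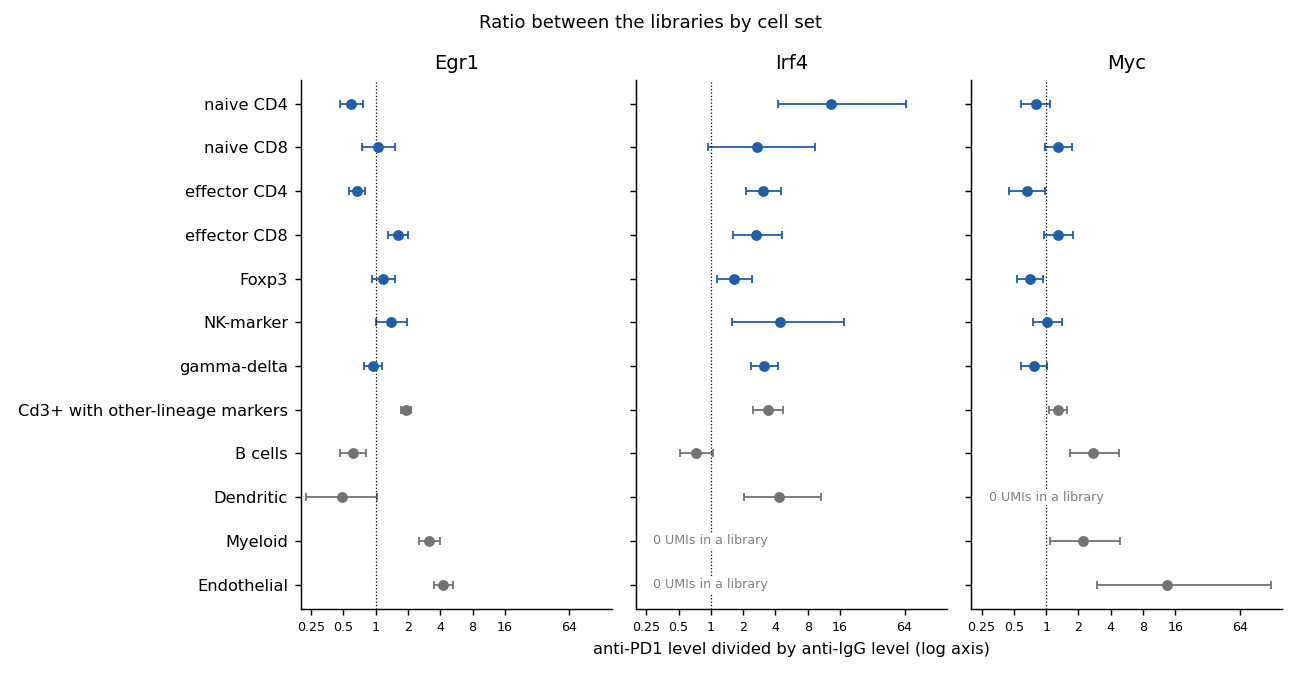
Anti-PD1 level divided by anti-IgG level (horizontal log axes) of Egr1, Irf4 and Myc in 7 T cell gates (blue), in Cd3-positive cells with markers of other lineages and in 4 non-T cell sets (grey), with 95% conditional exact intervals and a dotted line at 1. Irf4 lies right of 1 in all 7 gates, Egr1 lies left in naive CD4 and effector CD4 cells and right in effector CD8 cells, and Myc lies between 0.664 and 1.3 in the T cell gates.

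Egr2 and Egr3, the pair linked to calcineurin and NFAT signalling and to the restraint of activated and anergic T cells, were sparse. Egr2 gave 62 and 147 UMIs in Cd3-positive cells, 2.99 (2.29 to 3.83) and 5.59 (4.73 to 6.57) CPM, a ratio of 1.87 (1.38 to 2.56). It was above 1 in all 13 alternatives, between 1.55 and 1.97. Of these UMIs 10 and 46 came from cells with markers of other lineages, and 9 and 31 from cells in no gate (2.61 and 7.47 CPM, ratio 2.86, 1.33 to 6.82). Within the 5 gates Egr2 stayed under 50 summed UMIs. It was 3.02 and 3.04 CPM in naive, 3.71 and 4.90 in effector, 1.22 and 2.76 in gamma-delta and 4.85 and 1.82 in Foxp3 cells, with intervals of the ratio that include 1 in each. NK-marker cells held 0 and 12 Egr2 UMIs in 0 and 9 cells, at least 2.23-fold higher against a floor of 3 counts in the library at 0, in the gate where dendritic markers were higher too. Fibroblasts held 3 and 26 Egr2 UMIs and myeloid cells 7 and 37, higher in the anti-PD1 library in both sets, while B cells held 1 and 1, endothelial cells 0 and 0 and dendritic cells 0 and 1. Thinned shares of Cd3-positive cells with an Egr2 UMI were 0.278% and 0.434%, with overlapping intervals of 0.139 to 0.497 and 0.275 to 0.650.

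Egr3 gave 58 and 74 UMIs, 2.79 and 2.82 CPM, a ratio of 1.01 (0.705 to 1.45). In naive cells it went from 9 UMIs to 1 and in Foxp3 cells from 12 to 2, ratios of 0.0906 (0.00207 to 0.654) and 0.146 (0.0158 to 0.654). The Foxp3 UMIs came from 6 cells and 1 cell, with 5 of the 12 in a single cell. Effector cells held 17 and 24 (3.16 and 4.36 CPM, ratio 1.38, 0.711 to 2.74) and gamma-delta cells 0 and 2. B cells had the highest Egr3 level of the sets ordered in both libraries, 18.5 and 34.7 CPM from 4 and 14 UMIs. In the anti-PD1 library that level did not overlap the next, effector CD4 at 6.70 CPM, and in the anti-IgG library it overlapped the Foxp3 gate. The thinned share of Cd3-positive cells was 0.404% and 0.245%.

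Myc, which switches on ribosome building, amino acid uptake and glycolysis before T cells divide, had a ratio near 1 over all Cd3-positive cells. It stood at 57.2 CPM (1187 UMIs) and 60.0 (1576 UMIs), a ratio of 1.05 with an interval of 0.972 to 1.13, and 26.6% of genes had a higher ratio. The thinned shares were 4.09% (3.50 to 4.76) and 4.26% (3.74 to 4.84). Naive cells stood at 60.0 and 57.1 (ratio 0.952, 0.803 to 1.13), effector cells at 43.8 and 49.9 (1.14, 0.954 to 1.36) and NK-marker cells at 104 and 106 (1.02, 0.759 to 1.39). Foxp3 cells were lower in the anti-PD1 library, at 80.4 and 56.9 (0.708, 0.534 to 0.937), and effector CD4 cells too, at 35.3 and 23.4 (0.664, 0.448 to 0.968). The effector CD4 ratio reversed to 1.11 (0.429 to 2.80) when cells were thinned. Gamma-delta cells stood at 36.2 and 28.0 (0.775, 0.585 to 1.03), and thinning moved that ratio to 0.38 (0.176 to 0.799), an interval that excludes 1. It also moved the NK-marker ratio to 0.476 (0.181 to 1.24). Naive CD8 cells exceeded naive CD4 cells in both libraries, 76.3 against 53.0 and 99.4 against 42.3, and the intervals were apart in the anti-PD1 library only. The order of T cell gates was led by NK-marker cells in both libraries, overlapping Foxp3 cells in the anti-IgG and naive CD8 cells in the anti-PD1 library. A single anti-IgG NK-marker cell held 19 of the 69 Myc UMIs, and without it the level was 77.2 CPM. Effector CD4 cells came last with gamma-delta cells beside them.

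In B cells Myc stood at 88.1 CPM (19 UMIs in 13 cells) in the anti-IgG and 243 (98 UMIs in 32 cells) in the anti-PD1 library, a ratio of 2.75 (1.67 to 4.77). Only 29 of 1735 genes tested in B cells had a higher ratio, while 19.8% were at least 1.5-fold higher. The share of B cells with a Myc UMI was similar in the 2 libraries, 23.2% and 24.1% unthinned. Thinned, it was 10.7% (4.03 to 21.9) and 12.9% (7.68 to 19.8). Fibroblast Myc was 6 and 52 UMIs and endothelial Myc 2 and 12.

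The UMIs of each gene were concentrated in few cells. The 1% of cells with the most UMIs held 40.9% of Irf4 UMIs in the anti-IgG library (40 cells) and 25.8% in the anti-PD1 library (54 cells), and 23.8% and 34.2% of Egr1 UMIs. Of the cells with an Irf4 UMI, 165 of 203 anti-IgG and 393 of 636 anti-PD1 cells held exactly 1, and 8 and 38 held 5 or more. For Myc the cells with 5 or more numbered 35 and 58.

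Few cells held 2 members at once. Among cells thinned to 1000 UMIs and without markers of other lineages, Irf4 was found in 4.74% (18 of 380) of anti-PD1 cells with Egr1 and in 3.37% of those without, and the intervals overlapped (2.83 to 7.38 and 2.86 to 3.94). Myc was found in 4.47% of cells with Egr1 and 4.10% of those without in the anti-PD1 library, and in 2.84% and 4.21% in the anti-IgG library. Myc and Irf4 shared 3 anti-IgG and 6 anti-PD1 cells. Egr3 was found in 1.05% (0.288 to 2.67) of anti-PD1 cells with Egr1 and in 0.154% (0.0620 to 0.317) of those without, from 4 and 7 cells. In the anti-IgG library the shares were 1.26% (0.345 to 3.20) and 0.324% (0.162 to 0.579), from 4 and 11 cells, and the intervals overlapped in both libraries. These shares describe cells of 1 library each.

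Nr4a1 encodes Nur77, an orphan nuclear receptor used as a reporter of recent receptor signalling, and the members were set beside it in a split added after the data were seen. Nr4a1 itself was 105 and 507 CPM in Cd3-positive cells. In gamma-delta cells of the anti-PD1 library Irf4 stood at 87.5 CPM with an Nr4a1 UMI and 23.9 without, a ratio of 3.66 (2.35 to 6.0). In effector cells the same ratio was 2.83 (1.75 to 4.50) in the anti-IgG and 2.54 (1.83 to 3.59) in the anti-PD1 library. In naive cells it was 0.914 (0.0974 to 4.29) and 0.990 (0.648 to 1.51), and in anti-PD1 Foxp3 cells 0.827 (0.476 to 1.52). The higher Irf4 of naive anti-PD1 cells was therefore seen at 18.1 CPM with and 18.3 without an Nr4a1 UMI, against 2.59 and 2.84 in the anti-IgG library. Egr1 was higher in cells with Nr4a1 in naive (2.26 and 1.70 fold in the 2 libraries), effector (1.46 and 2.06) and gamma-delta (2.37 and 2.10) cells. Within effector CD4 cells the Egr1 ratio was 1.01 (0.773 to 1.31) in the anti-IgG and 2.05 (1.39 to 3.12) in the anti-PD1 library. Cells with a UMI of a gene are deeper on average, which CPM corrects only in the mean. After thinning, 5.19% (4.12 to 6.43) of anti-PD1 cells with Nr4a1 and 2.72% (2.20 to 3.32) of those without held Irf4, and 10.7% and 6.41% held Egr1.

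**Figure D3:**
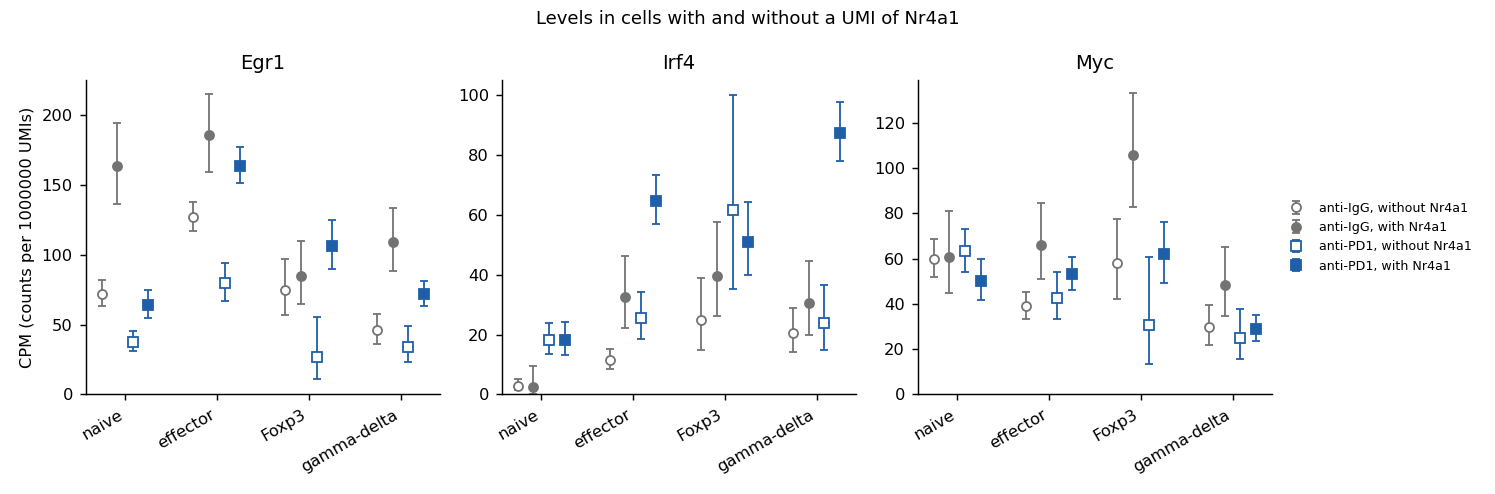
Levels (vertical axes, CPM, linear) of Egr1, Irf4 and Myc in cells with (filled) and without (open) a UMI of Nr4a1, in 4 gates of the anti-IgG (grey circles) and anti-PD1 (blue squares) libraries, with exact Poisson 95% intervals. Irf4 is higher with Nr4a1 in effector cells of both libraries and in anti-PD1 gamma-delta cells (87.5 against 23.9), and level in naive cells (18.1 against 18.3).

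Pdcd1, the target of the antibody, was used to split the gates in the same way. Effector cells with a Pdcd1 UMI held Irf4 at 23.5 CPM against 11.8 without in the anti-IgG library (ratio 1.99, 1.25 to 3.15), and at 63.9 against 47.4 in the anti-PD1 library (1.35, 1.06 to 1.71). Effector CD4 cells gave ratios of 2.75 (1.47 to 5.2) in the anti-IgG and 1.18 (0.761 to 1.81) in the anti-PD1 library. In effector CD8 cells they were 0.808 (0.230 to 2.34) and 1.36 (0.823 to 2.22), so of these 4 subset ratios only that of anti-IgG effector CD4 cells had an interval that excludes 1. In gamma-delta cells, 286 and 596 of which had a Pdcd1 UMI, the ratio was 0.992 (0.557 to 1.83) and 1.65 (1.24 to 2.24). Myc went the other way in anti-PD1 gamma-delta cells, 22.5 with and 43.5 without (0.517, 0.356 to 0.758). In Foxp3 cells Irf4 was 34.5 with and 29.1 without in the anti-IgG library and 48.8 and 58.2 in the anti-PD1 library, with intervals that include a ratio of 1.

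Further splits used the anergy marker Izumo1r, the early activation receptor Cd69 and the division marker Mki67. Effector cells with Izumo1r had lower Myc in both libraries, 33.0 against 46.8 and 26.1 against 54.7 CPM (ratios 0.706, 0.487 to 0.999, and 0.477, 0.300 to 0.727). Their Irf4 was higher in the anti-PD1 library, 75.1 against 48.4 (1.55, 1.17 to 2.04). Effector CD4 cells made up 148 and 112 of the 242 and 205 effector cells with Izumo1r. Within effector CD4 cells the Myc ratios were 0.584 (0.317 to 1.01) and 0.442 (0.152 to 1.06), intervals that include 1. There the anti-PD1 Irf4 ratio was 1.75 (1.14 to 2.67). Anti-PD1 effector cells with Cd69 had higher Irf4 (1.70, 1.29 to 2.28) and Myc (1.79, 1.34 to 2.43). In the anti-IgG library Irf4 (1.14) and Myc (0.906) had intervals that include 1. In anti-PD1 effector CD4 cells Irf4 was higher with Cd69 as well (2.04, 1.20 to 3.68). The Myc ratio there was 0.956 (0.482 to 2.00), an interval that includes 1. Effector CD8 cells with Mki67 had lower Myc than those without, 16.7 against 57.2 and 14.2 against 74.1 CPM. The ratios were 0.292 (0.103 to 0.672) and 0.192 (0.0689 to 0.430), from 45 and 61 cells with Mki67. In effector CD4 cells the same ratios were 1.18 (0.686 to 1.95) and 1.21 (0.565 to 2.44), intervals that include 1.

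Genes upstream and downstream of the members were read from 9 lists of 131 symbols in all, as ratios in all Cd3-positive cells. These lists are described by counts and medians beside the median of all 12849 genes, a log2 ratio of -0.13. The 16 surface and nuclear reporters of receptor signalling had 7 genes at least 1.5-fold higher and 1 lower, with a median log2 ratio of 0.46. Over all genes 5.88% were at least 1.5-fold higher and 11.8% at least 1.5-fold lower, and each list's counts are to be read against these shares. Nr4a3 (53.9 and 287 CPM, ratio 5.33) and Nr4a1 (4.85) led, and Cd200 was lowest (13.9 and 7.27, ratio 0.522). A list for the Egr family held Egr4, the Egr corepressors Nab1 and Nab2, and 2 genes of other families, Klf10 and Zfp36l1. All but Egr4 had enough UMIs, with a median of 0.44, so that median holds no Egr gene. Klf10, a TGF-beta inducible repressor, was 2.19, and Zfp36l1, which degrades AU-rich transcripts, was 1.46. The corepressors Nab1 and Nab2 were lower, at 1.26 and 1.06.

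On the ERK and SRF route to Egr1, 5 of 20 genes were at least 1.5-fold higher and 2 lower, with a median of -0.01. The ERK phosphatases Dusp4 (12.8 and 42.7 CPM, ratio 3.33) and Dusp5 (179 and 568, 3.17) were highest and the ERK inhibitor Spred1 lowest (0.639). Fos, an SRF target like Egr1, was the other gene past the fold, at 0.667 (878 and 585 CPM). Of 11 calcineurin and NFAT genes 1 was higher and none lower, with a median of -0.11, close to that of all genes: the calcium channel gene Orai1 was 1.75, Camk4 1.16 and the calcineurin subunit gene Ppp3r1 0.792. Of 16 anergy genes linked to Egr2 and Egr3, 4 were higher and none lower, with a median of 0.01. Ndrg1 was 2.33 and Tnfrsf9, which encodes 4-1BB, 2.12, and the lymphoid factor Ikzf1 was lowest at 0.787.

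The 16 Irf4 partners and effector regulators had 5 genes higher and 1 lower, with a median of 0.25. Bhlhe40 (113 and 352 CPM, ratio 3.12) and Bcl6 (10.9 and 27.2, 2.49) were highest and Jun lowest (823 and 488, 0.593). With both libraries set to the same mix of gates the median of this list was 0.07. Of 12 Myc network genes 10 had enough UMIs, 2 of them higher and none lower, with a median of -0.06. The Max partners Mxi1 (2.07) and Mxd1 (1.91), which oppose Myc, were the highest and Mlx (0.766) the lowest. Among 25 growth targets of Myc 4 were higher and 1 lower, with a median of 0.09: Odc1, the first enzyme of polyamine synthesis, was 3.11 (142 and 442 CPM), hexokinase gene Hk2 2.95 and Tfap4 0.574. The 14 heat shock and dissociation genes had 2 higher and 4 lower, with a median of 0.01, from Atf3 (3.69) and Ier3 (2.75) to Hspa1b (0.593).

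**Figure D4:**
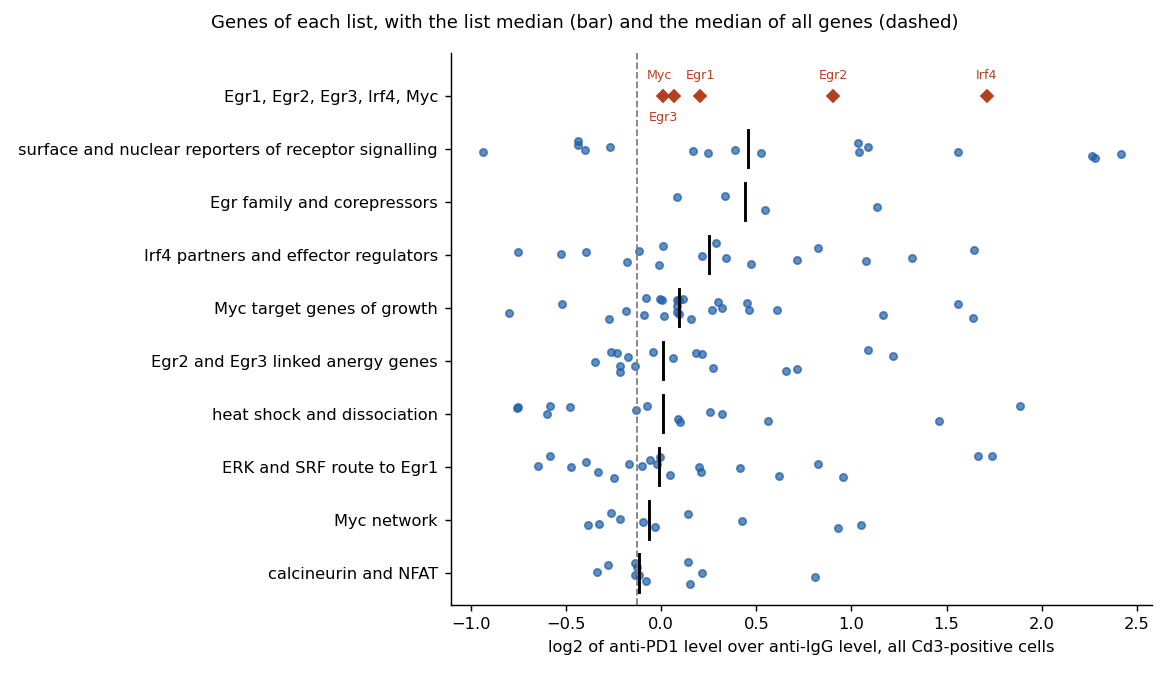
Log2 of the anti-PD1 over anti-IgG level in all Cd3-positive cells (horizontal axis) for the genes of 9 lists with 50 or more summed UMIs (blue points, spread vertically for display), with each list's median (black bar), the median of all genes (dashed, -0.13) and the 5 members (red diamonds). The reporter list has the highest median, 0.46, and Irf4 lies at 1.71.

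Genes were also ranked by how their levels followed each member over 7 gates in 2 libraries, 14 points centred within library, among 8608 genes. The points share 2 libraries and differ in depth, so the coefficients are descriptions. Irf4 was followed most closely by Virma (r = 0.97), Ripk3 (0.97), Kctd17 (0.97), Yaf2 (0.96) and Crip2 (0.95). Myc was followed by Pde2a (0.91), Efr3a (0.89), Zyg11b (0.89), Ints13 (0.86) and Cnppd1 (0.85), and Egr1 by Dtx3l (0.88), Mndal (0.86), Adprm (0.85), Slfn8 (0.85) and Rnf114 (0.85). For Egr2 (Poldip2, 9430015G10Rik, Taf1c, Tmem11 and Brd2, r from 0.79 to 0.87) and Egr3 (2300009A05Rik, Bmi1, Malt1, 1500011B03Rik and Herc1, 0.77 to 0.81) the ranking rests on 90 and 56 UMIs. Among the members themselves r was 0.65 for Egr1 with Egr3 and -0.46 for Irf4 with Myc, the latter -0.29 within the anti-IgG and -0.71 within the anti-PD1 gates.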

How the data were processed

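The deposited matrices hold raw UMI counts per gene and barcode, made by the authors with Cell Ranger 7.1.0 per the file headers. Per the submitters' processing notes the tools were Seurat 4.4.0 and Cell Ranger 7.2.0, on mm10. Nothing in the counts was normalized. Cells were kept with 300 genes, 500 UMIs and up to 10% of UMIs from mitochondrial genes (4309 anti-IgG and 5835 anti-PD1 cells, of total counts of 22806806 and 29046341 UMIs). Levels (CPM) are UMIs summed over a gate per 1000000 UMIs of that gate, with exact Poisson intervals, ratios have conditional exact intervals and shares of cells Clopper-Pearson intervals, all at 95% (Python 3.11.15, scipy 1.17.1). Genes enter counts and medians with 50 or more summed UMIs. No doublets were removed in the main values. An alternative left out the cells with the highest scores of Scrublet in scanpy 1.11.5 and kept 3847 and 5083 Cd3-positive cells.

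Named genes are the members, the 2 highest and the lowest ratio of each list, and the 5 highest r. Fos, Jun, Junb, Batf, Cd69, Hspa1a, Ighm, Egr4 and Nab1 were added after their values were seen. The members and lists were chosen with earlier results of these data known. For shares, cells were thinned to 1000 UMIs, leaving out 34 and 52 shallower Cd3-positive cells. Some gate markers, and 1 alternative that used one, are not reported here. Symbols were read from the features table. Scart1 stood for Cd163l1, and Miz1 matched no row. Ratio and interval code was tested on simulated data.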

Additional observations from a re-analysis of the deposited data

Results flagged for a closer look

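A pair of cell sets moved in opposite directions between the libraries for 2 of the genes, and neither difference was tested. Egr1 was higher in anti-PD1 endothelial cells, with a ratio of 4.28 (3.52 to 5.23), and lower in anti-PD1 naive T cells, with a ratio of 0.565 (0.481 to 0.663). Endothelial Hspa1a (32.1 and 337 CPM) and naive Hspa1a (251 and 69.4) moved in those same directions, and its part was not tested. Myc was higher in anti-PD1 B cells, with a ratio of 2.75 (1.67 to 4.77), from 19 and 98 UMIs. The unthinned shares of B cells with a Myc UMI were 23.2% and 24.1%. Myc was lower in anti-PD1 effector CD4 cells, with a ratio of 0.664 (0.448 to 0.968), from 89 and 42 UMIs. The effector CD4 direction was not stable: the ratio was 1.11 (0.429 to 2.80) with cells thinned to 1000 UMIs, and 0.683 (0.456 to 1.01) without the cell with the most UMIs in each library.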

How the results depend on the processing

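Of the ratios, shares and list medians reported, 139 of 163 values under an alternative stayed within the counting interval of the reported value (for list medians, within the list's interquartile range) without turning a direction whose interval excluded 1. Egr1 over all Cd3-positive cells (reported 1.15) became 0.958 with cells thinned to 1000 UMIs, 0.899 without cells with markers of other lineages, 0.961 with every cell weighted alike, 0.94 with the same mix of gates and those cells left out, and 1.05 without cells with a Hspa1a or Hspa1b UMI. Egr3 became 0.703 both when thinned and without the Hspa1a and Hspa1b cells, and Irf4 3.78 with every cell weighted alike. Thinning gave 1.43 for Myc in effector, 0.655 for Egr1 and 0.476 for Myc in NK-marker, 2.19 for Irf4 and 0.38 for Myc in gamma-delta cells, and 1.11 for Myc in effector CD4 cells. Without Hspa1a and Hspa1b cells Myc was 1.46 in the NK-marker gate. Unthinned shares of Cd3-positive cells were 22.7% and 23.3% for Egr1, 1.25% and 2.07% for Egr2, 1.10% and 1.05% for Egr3, 5.09% and 11.9% for Irf4, and 16.8% and 15.7% for Myc. Without centring, the 5 genes most like each member shared 1 gene for each of the Egr genes and 0 for Irf4. Leaving out the cell with the most UMIs, the same mix without other-lineage cells, and leaving out Hspa1a and Hspa1b cells within gates were chosen after seeing the data. No paired analysis was possible because each group is 1 library, and no library could be left out for the same reason.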

Other observations

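Cd3-positive cells that met no gate, 575 and 780 cells, had Irf4 at 7.55 and 23.4 CPM (ratio 3.10, 1.99 to 4.97) and Myc at 75.2 and 91.1 (1.21, 1.03 to 1.42). Cd3-positive cells with markers of other lineages had Irf4 at 15.4 and 52.0 (3.38, 2.46 to 4.75). In both sets the Irf4 ratio lay between those of the Foxp3 and naive gates. Junb, a partner of Irf4 and Batf, was 1588 and 3481 CPM in effector cells (ratio 2.19, 2.14 to 2.25) and 2402 and 3025 in naive cells (1.26, 1.23 to 1.29). Batf was 1.43 (1.23 to 1.66) in naive, 1.73 (1.40 to 2.15) in gamma-delta and 0.881 (0.739 to 1.05) in Foxp3 cells. Cd69 was lower in the anti-PD1 library in each of the 5 gates, with ratios from 0.600 in NK-marker to 0.812 in effector cells, while Nr4a1 was higher in each, from 2.90 in Foxp3 to 8.22 in effector cells.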
